A study of Homo sapiens with 7 samples.

Results

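The regions described here are short H3K4me2 peaks of T-47D cells that overlapped no peak of any other histone list, and they are named H3K4me2-only peaks below. They were chosen by the peak lists themselves: rows of the H3K4me2 list on chromosomes 1 to 22 and X, narrower than 2000 bp, with no shared base pair with the H3K27ac, H3K36me3 or H3K27me3 lists or with the lists labelled H2A.Z and H3K9me3. The rule kept 41522 of 64561 H3K4me2 peaks, or 64.3% (95% Wilson interval 63.9 to 64.7), out of 285703 peaks in all 6 lists. Positions are those of the build hg19, counted from 1. The peaks were set against the 16565 H3K4me2 peaks that overlapped H3K27ac, named co-marked peaks below.

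T-47D is a luminal breast cancer cell line, and the chromatin immunoprecipitation and sequencing (ChIP-seq) used cells grown in medium with serum, with no treatment or genetic change named. The study asked how histone modification relates to gene expression regulation in this line. Each mark had 1 library and 1 peak list, so no comparison below has a replicate check or a test, and all are descriptions of these libraries. The lists give positions only, with no peak height, and their depth is unknown. Intervals on shares (Wilson) and on medians (from order statistics) are 95% intervals for counting error with peaks taken as independent, and they are too narrow where peaks lie in clusters.

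As background, H3K4me2 is dimethylation of lysine 4 on histone H3 and is found at promoters and at enhancers, both active and inactive. H3K27ac marks the active ones, H3K36me3 follows transcription through gene bodies, and H3K27me3 is laid down by Polycomb complexes over repressed regions. H3K4me2 without H3K27ac is commonly read as a primed or poised regulatory region, but a peak missing from a list may also be signal under the threshold used for that list. The histone variant H2A.Z is known at active promoters and enhancers, and H3K9me3 in heterochromatin. Around the co-marked peaks of these data the lists with those labels sat the other way round, so both are given as labelled lists. With overlaps included, the first lay within 1 kb of 0.127% of co-marked peaks and the second within 1 kb of 30.3%. Of the 16565 co-marked peaks, 16560 did not overlap the first and 12842 did not overlap the second.

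H3K4me2-only peaks were narrow. Their median width was the commonest width in the lists, just over 500 bp, and the middle 50% of them ran from that width to 718 bp, whereas co-marked peaks had a median of 812 bp and a middle range from the commonest width to 1341 bp. Exactly the commonest width was found in 58.4% of H3K4me2-only peaks (57.9 to 58.8), against 26.6% of co-marked peaks (25.9 to 27.2). The rule limits the width of H3K4me2-only peaks and not that of co-marked peaks, so part of this contrast is set by the choice. Co-marked peaks under 2000 bp had a median of 763 bp and an upper quartile of 1101 bp. Of these, 30.1% (29.3 to 30.8) had the commonest width, and they covered 12.8 Mb. Despite their number, the H3K4me2-only peaks covered 27.2 Mb, or 0.983% of the analysed span of 2772.7 Mb, against 18.5 Mb for the co-marked peaks, which were fewer and wider.

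The share of H3K4me2 peaks found alone fell with width. It was 78.2% of 31019 peaks no wider than the commonest width, 62.6% of 21124 peaks wider than that but under 1000 bp, 42.6% of 9462 peaks from 1000 to under 2000 bp, and 22.7% of 2956 peaks of 2000 bp or more. Width and overlap are both part of the rule, so this is a description of the choice. Of the H3K4me2 peaks left out, 670 were alone but 2000 bp or wider, and 5804 had no H3K27ac but met another list.

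The limits of the rule cut through a continuous range. The 2 widest H3K4me2-only peaks were 1999 bp, on chromosome 12 (53253011 to 53255009) and chromosome 14 (105938821 to 105940819), and the next was 1998 bp, on chromosome 10 (11757124 to 11759121). The narrowest lone peak left out was 2001 bp, on chromosome 2 (26909510 to 26911510). Lone peaks in the 100 bp of width just under the limit numbered 130 and those in the 100 bp from the limit upwards numbered 106. The limit on overlap was similar: 783 H3K4me2-only peaks had a peak of another list within 100 bp, and 882 of the 20083 short peaks excluded for an overlap shared at most 100 bp with any other list.

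Most H3K4me2-only peaks lay within 50 kb of H3K27ac, although none overlapped it. The median distance to the nearest H3K27ac peak, from edge to edge, was 21.6 kb (21.0 to 22.1), and the middle 50% ran from 4.72 to 76.4 kb. Within 1 kb lay 9.43% of them, within 10 kb 36%, within 50 kb 66.9% and within 100 kb 79.9%. Beyond 1 Mb lay 188 peaks, or 0.453%.

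H3K4me2-only peaks were farther from their nearest H3K27ac peak than co-marked peaks were from the nearest one that they did not overlap. That distance had a median of 7.25 kb (6.94 to 7.52) for co-marked peaks and 7.44 kb for those of them under 2000 bp. Within 10 kb lay 36% of H3K4me2-only peaks (35.5 to 36.4), against 56.1% of co-marked peaks (55.3 to 56.9). The median was longer for H3K4me2-only peaks on 23 of 23 chromosomes. Because the rule itself uses H3K27ac, these distances describe the choice and are not a separate result.

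**Figure D1:**
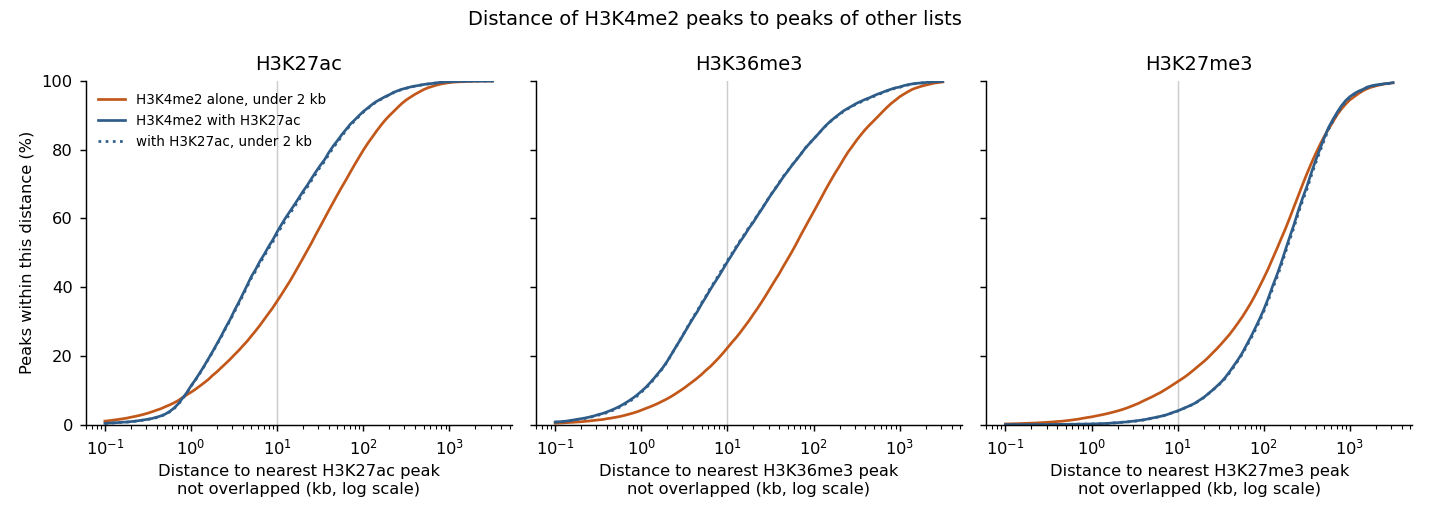
Percent of peaks (vertical axis) with a peak of H3K27ac, H3K36me3 or H3K27me3 that they do not overlap within the distance on the log horizontal axis, in kb; orange, H3K4me2-only peaks; blue, co-marked peaks; dotted, co-marked peaks under 2 kb. At 10 kb (grey line) the orange curve is below the blue one for H3K27ac (36% against 56.1%) and H3K36me3, and above it for H3K27me3 (12.5% against 3.99%).

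Per Mb of sequence, H3K4me2-only peaks thinned out steadily with distance from H3K27ac. Their centres had a density of 61.4 per Mb at 1 to 2 kb from an H3K27ac edge, 29.2 per Mb at 5 to 10 kb, 13.2 per Mb at 50 to 100 kb and 3.32 per Mb beyond 500 kb. The mean over all sequence more than 1 kb from H3K27ac was 14.5 per Mb, so the nearest zone held 4.24 times the mean and the farthest 0.230 times. The 3 peaks farthest from H3K27ac were 2 neighbours on chromosome 9 (44872912 to 44873412 and 44881755 to 44882255), at 2918 and 2926 kb, and a 629 bp peak on chromosome 2 (91670095 to 91670723) at 2679 kb. The 3 nearest lay on chromosome 16 (1244453 to 1245100) and chromosome 19 (36139849 to 36140479), both directly abutting an H3K27ac peak, and on chromosome 1 (117774951 to 117775967), 1 bp away. Spans of 1 Mb or more without any peak were left out of the densities but not of the distances.

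The H3K27ac peaks that flanked H3K4me2-only peaks were of both kinds, with and without H3K4me2 of their own. For 55.4% of H3K4me2-only peaks (54.9 to 55.8) the nearest H3K27ac peak itself overlapped H3K4me2, compared with 48.8% of all H3K27ac peaks. Among those within 5 kb of H3K27ac the share was 47.1% (46.2 to 48.1). Seen from the H3K27ac side, 15% of H3K27ac peaks without H3K4me2 (14.4 to 15.5) had an H3K4me2-only peak within 1 kb, against 10.0% of those with H3K4me2 (9.56 to 10.5). Within 5 kb the shares were 37.2% of those without and 35.6% of those with H3K4me2. Because an H3K4me2 peak that overlaps H3K27ac is never H3K4me2-only, these shares describe the choice and are not a separate result.

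H3K4me2-only peaks were farther from H3K36me3, the mark of transcribed gene bodies, than co-marked peaks were. Their median distance was 55.1 kb (53.7 to 56.6), against 10.8 kb (10.3 to 11.4), and 22.3% of them (21.9 to 22.7) had H3K36me3 within 10 kb, against 48.8% of co-marked peaks (48 to 49.6). Co-marked peaks may overlap H3K36me3 and H3K4me2-only peaks may not, but the 15470 co-marked peaks without that overlap still had a median of 13.3 kb (12.7 to 13.9). Of these, 45.2% (44.4 to 46.0) had H3K36me3 within 10 kb. The median was longer for H3K4me2-only peaks on 23 of 23 chromosomes, and 1895 of them (4.56%) lay beyond 1 Mb, against 287 co-marked peaks (1.73%). These are distances to single listed peaks. The H3K36me3 list had a median width of 723 bp, and 38.4% of its peaks had the commonest width. Whether H3K4me2-only peaks lay between H3K36me3 peaks of one wider marked stretch was not tested.

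The distance to H3K36me3 moved with the distance to H3K27ac. Of the H3K4me2-only peaks under 1 kb from H3K27ac, 44.5% (42.9 to 46.0) had H3K36me3 within 10 kb. This was near the 45.2% (44.4 to 46.0) of co-marked peaks that did not overlap H3K36me3. With overlaps included, the share of co-marked peaks was 48.8%. For H3K4me2-only peaks the share was 29.0% at 5 to 10 kb from H3K27ac, 12.9% at 50 to 100 kb and 0.962% beyond 500 kb. The density of H3K4me2-only peaks changed little over the first 20 kb from H3K36me3, with 29.4 per Mb at 1 to 2 kb, 31.8 at 5 to 10 kb and 29.2 at 10 to 20 kb. Co-marked peaks thinned out over the same range, with 28.4 per Mb at 2 to 5 kb and 13.4 per Mb at 10 to 20 kb.

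Towards H3K27me3, the Polycomb mark, the order was the other way round. H3K4me2-only peaks had a median distance of 135 kb (133 to 138), against 173 kb (169 to 178) for co-marked peaks. The classes differed more in the shares at short range: 12.5% of H3K4me2-only peaks (12.2 to 12.8) had H3K27me3 within 10 kb and 2.25% (2.11 to 2.40) within 1 kb, against 4.04% (3.75 to 4.35) and 0.266% (0.198 to 0.356) of co-marked peaks. The median was shorter for H3K4me2-only peaks on 19 of 23 chromosomes and longer on the other 4, which were chromosomes 4, 6, 18 and X. On chromosomes 4, 18 and X, H3K27me3 peaks numbered 4.22 to 6.82 per Mb, the fewest of all chromosomes. The H3K27me3 list was also made of short peaks. Of these, 57.8% had the commonest width, which was their median too, and the widest was 10993 bp. The distances are therefore to single H3K27me3 peaks and not to the edges of wider marked stretches, which were not defined here.

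H3K4me2-only peaks were nonetheless thinner next to H3K27me3 than at 100 to 200 kb from it. Their density was 10.8 per Mb at 1 to 2 kb from H3K27me3 (0.690 times their mean), 14.6 at 5 to 10 kb, 18.9 at 100 to 200 kb and again lower, 11.2, beyond 500 kb. Co-marked peaks were scarcer still next to the mark, with 0.523 per Mb at 1 to 2 kb, or 0.0827 times their mean, and 9.08 per Mb at 100 to 200 kb. H3K4me2-only peaks far from H3K27ac were more often near H3K27me3: it lay within 10 kb of 2.48% of those under 1 kb from H3K27ac (2.04 to 3.01), of 28.0% of those 100 to 500 kb away (27 to 29.1) and of 16.2% of those beyond 500 kb.

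**Figure D2:**
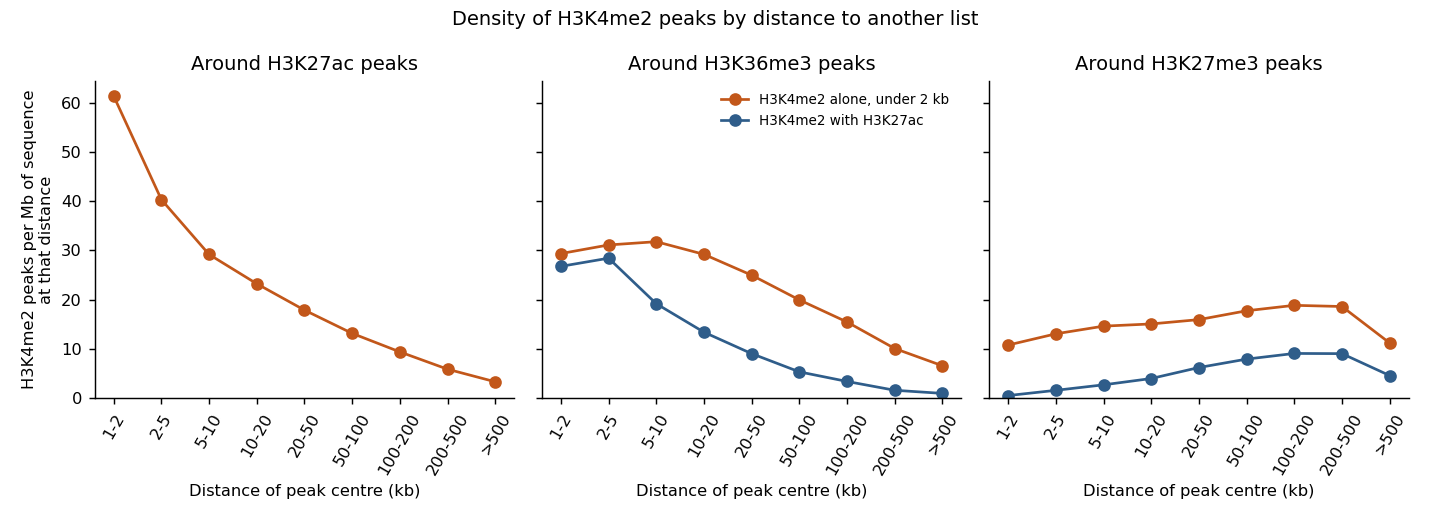
H3K4me2 peaks per Mb of sequence (vertical axis) by the distance of their centre from the nearest edge of an H3K27ac, H3K36me3 or H3K27me3 peak, in kb; orange, H3K4me2-only peaks; blue, co-marked peaks, which are not drawn around H3K27ac because they overlap it. The orange points drop from 61.4 to 3.32 per Mb away from H3K27ac, and around H3K27me3 they start at 10.8 per Mb where the blue ones start at 0.523.

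Of the labelled lists, one was nearer to H3K4me2-only peaks and the other nearer to co-marked peaks. The list labelled H2A.Z lay within 10 kb of 7.88% of H3K4me2-only peaks (7.62 to 8.14), against 3.16% of co-marked peaks (2.90 to 3.43). The list labelled H3K9me3 lay within 10 kb of 18.8% of H3K4me2-only peaks (18.5 to 19.2). For co-marked peaks that share was 44.0%, or 27.8% (27 to 28.5) among the 12842 co-marked peaks that did not overlap that list.

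Which mark came first along the chromosome showed the same mixture of surroundings. The nearest peak of any other list was H3K27ac for 40.7% of H3K4me2-only peaks, although H3K27ac made up 14.2% of the peaks in the other 5 lists. It was H3K36me3 for 19.4%, H3K27me3 for 15.5%, the list labelled H3K9me3 for 15.3% and the list labelled H2A.Z for 9.07%. For co-marked peaks, counting peaks not overlapped, H3K27ac was nearest for 43.7%, H3K36me3 for 31.7% and H3K27me3 for 4.28%. H3K27me3 was the first other mark on both sides of 3306 H3K4me2-only peaks, or 7.96% (7.71 to 8.23), and of 218 co-marked peaks, or 1.32% (1.2 to 1.5). Whether the flanking H3K27me3 peaks belonged to one wider marked stretch was not tested.

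The classes also differed in their surroundings when H3K27ac, H3K36me3 and H3K27me3 within 10 kb were read together, counting for both classes only peaks that they did not overlap. All co-marked peaks overlap H3K27ac, so their shares here describe further peaks beside them. By this count none of the 3 marks was that near to 43.9% of them (43.4 to 44.3), against 23.5% of co-marked peaks (22.9 to 24.2). H3K27ac alone was near 21.9% of H3K4me2-only peaks and H3K27ac with H3K36me3 near 12.9%, against 26.5% and 28.8% of co-marked peaks with such peaks beside those they overlapped. H3K27me3 alone was near 11% of H3K4me2-only peaks (10.8 to 11.4), against 2.22% of co-marked peaks (2.01 to 2.46). H3K36me3 alone was near 8.85%, against 17.2% of co-marked peaks, and H3K27ac and H3K27me3 were both near for 361 H3K4me2-only peaks without H3K36me3 and for 132 with it.

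Few H3K4me2-only peaks were far from every other list. No peak of another list lay within 10 kb of 15587 of them (37.5%), within 50 kb of 3475 (8.37%) and within 500 kb of 76 (0.183%). With other H3K4me2 peaks counted too, 383 (0.922%) had no neighbour of any list within 100 kb. The 3 with the widest gap to any H3K4me2 peak were all of the commonest width and on chromosome X (141572278 to 141572778, 125592327 to 125592827 and 28060426 to 28060926), with gaps of 2064, 1995 and 1993 kb. The second of these had an H3K27ac peak only 0.823 kb away.

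H3K4me2-only peaks were spaced more widely than co-marked peaks. Their median gap to the nearest H3K4me2 peak of any kind was 6.16 kb (6.04 to 6.33), against 2.62 kb (2.53 to 2.70) for co-marked peaks and 2.58 kb for co-marked peaks under 2000 bp. A neighbour within 2 kb was present for 26.3% of H3K4me2-only peaks (25.9 to 26.7), against 43.4% of co-marked peaks (42.6 to 44.1). The gap was wider for H3K4me2-only peaks on 23 of 23 chromosomes. Measured to the nearest peak of the same class the order turned, with 10.4 kb for H3K4me2-only peaks against 11.2 kb for co-marked peaks. Each class then counts only its own peaks, of which there were 41522 and 16565.

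Each class had its own kind next to it more often than that kind's share of the list. The nearest H3K4me2 neighbour was another H3K4me2-only peak for 69.4% of H3K4me2-only peaks (68.9 to 69.8), and such peaks made up 64.3% of the list. It was a co-marked peak for 42.8% of co-marked peaks (42.0 to 43.6), against 21.4% of H3K4me2-only peaks (21.0 to 21.8), and co-marked peaks made up 25.7% of the list.

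A cluster was taken as 3 or more whole H3K4me2 peaks within a window of 10 kb, with overlapping windows joined. Clusters held 10240 H3K4me2-only peaks, or 24.7% (24.2 to 25.1), against 35.0% of co-marked peaks (34.3 to 35.7) and 36.1% of co-marked peaks under 2000 bp. The share was lower for H3K4me2-only peaks on 23 of 23 chromosomes. It depended on the window and on merging: it was 5.92% against 7.96% with a window of 5 kb, and 15.1% against 21.0% once H3K4me2 peaks within 1 kb of each other were merged. When only peaks of the same class counted, the order turned to 14.2% of H3K4me2-only peaks against 11.4% of co-marked peaks.

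Clustering of H3K4me2-only peaks was most frequent within 5 kb of H3K27ac, though not in the nearest zone. Clusters and gaps here count every H3K4me2 peak, co-marked ones included. For 47.1% of H3K4me2-only peaks within 5 kb of H3K27ac, the nearest H3K27ac peak itself overlapped H3K4me2. A nearby co-marked neighbour is therefore partly set by the choice, and its part in these shares was not tested. Of the H3K4me2-only peaks under 1 kb from H3K27ac, 45.5% (43.9 to 47.1) were in a cluster, and of those at 1 to 5 kb 52.9% (51.7 to 54.1) were, against 37.0% of those at 5 to 10 kb, 16.9% of those at 10 to 50 kb, 7.04% at 100 to 500 kb and 1.54% beyond 500 kb. Their median gap to the next H3K4me2 peak was 1.71 kb under 1 kb from H3K27ac, 2.28 kb at 1 to 5 kb from H3K27ac and 50.7 kb beyond 500 kb. Near H3K27me3 they were seldom clustered, with 5.56% (4.27 to 7.22) in a cluster under 1 kb from that mark, 31.0% at 100 to 500 kb and 24.2% beyond 500 kb.

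Most clusters mixed both classes. Of 4529 clusters, 4125 held an H3K4me2-only peak and 2640 held both an H3K4me2-only and a co-marked peak. Clusters made of H3K4me2-only peaks alone numbered 1067 (23.6%) and held 3604 such peaks. Of the 10240 clustered H3K4me2-only peaks, 5639 (55.1%) shared their cluster with a co-marked peak. A cluster held 3 H3K4me2 peaks in the median and spanned 8.71 kb, and 245 clusters held 5 or more H3K4me2-only peaks.

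**Figure D3:**
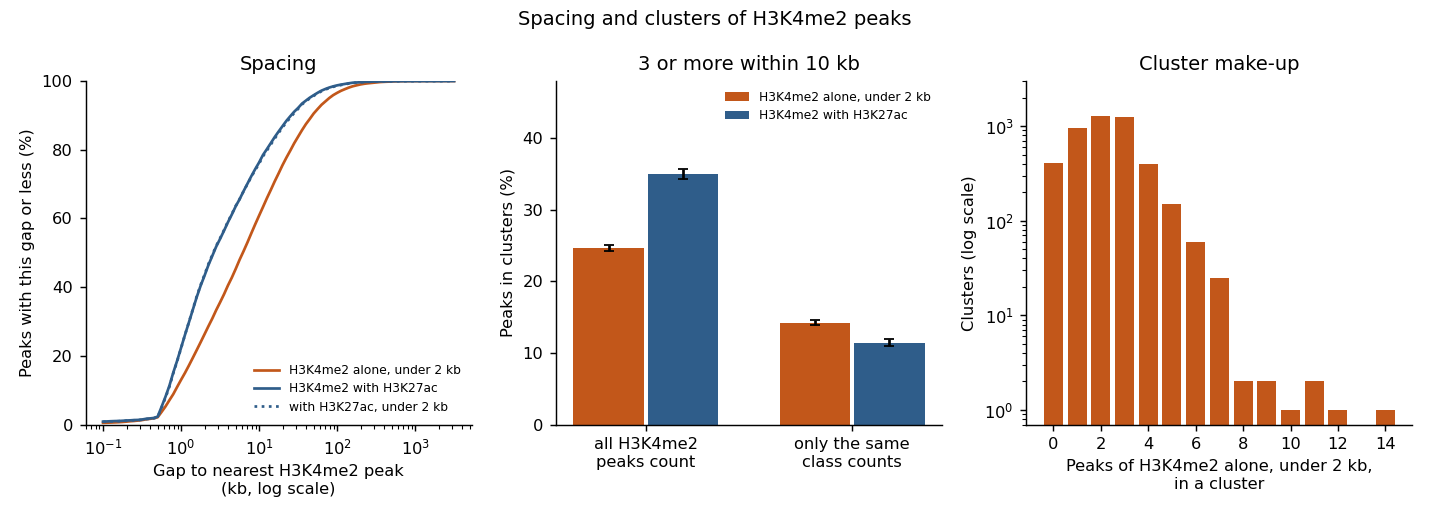
Left, percent of peaks with a gap to the nearest H3K4me2 peak up to the value on the log axis (kb); middle, percent of peaks in clusters of 3 or more within 10 kb, with 95% Wilson intervals; right, number of clusters (log axis) by the number of H3K4me2-only peaks in each. H3K4me2-only peaks (orange) are less often clustered than co-marked peaks (blue) when all H3K4me2 peaks count, 24.7% against 35.0%, and more often when only the same class counts, 14.2% against 11.4%.

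The clusters with the most H3K4me2-only peaks differed in what lay between the peaks. After clusters with 14 and 12 such peaks came 2 with 11 each, and these 4 clusters spanned 39.8 to 47.2 kb. The first, on chromosome 10 (79237959 to 79277771), held 14 H3K4me2-only peaks, up to 1720 bp wide, around 1 co-marked peak, with 1 H3K27ac peak and no peak of the other 4 lists inside it and the nearest H3K36me3 and H3K27me3 peaks 213 and 153 kb away. The second, on chromosome 19 (39612319 to 39659509), held 12 H3K4me2-only and 1 co-marked peak, with 3 further H3K4me2 peaks that met another list, and 4 H3K27ac peaks, 2 H3K36me3 peaks and 2 peaks of the list labelled H3K9me3 fell within it. Of its 12 H3K4me2-only peaks, 2 overlap each other (39642479 to 39643161 and 39642661 to 39643290), and both are counted. Of the 2 with 11, the cluster on chromosome 15 (99190032 to 99233971), held 11 H3K4me2-only peaks, 1 other H3K4me2 peak and 3 co-marked peaks, 2 of which overlap each other, with 3 H3K27ac peaks, 4 H3K36me3 peaks and 1 peak of the list labelled H3K9me3 inside and an H3K27me3 peak 0.363 kb beyond its edge. The other, on chromosome 14 (95704741 to 95749163), held 11 H3K4me2-only and 3 co-marked peaks with 3 H3K27ac peaks and no peak of the other 4 lists inside, and its nearest H3K36me3 peak was 18.1 kb away. In all 4 the H3K4me2-only peaks lay within 19.0 kb of an H3K27ac peak.

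**Figure D4:**
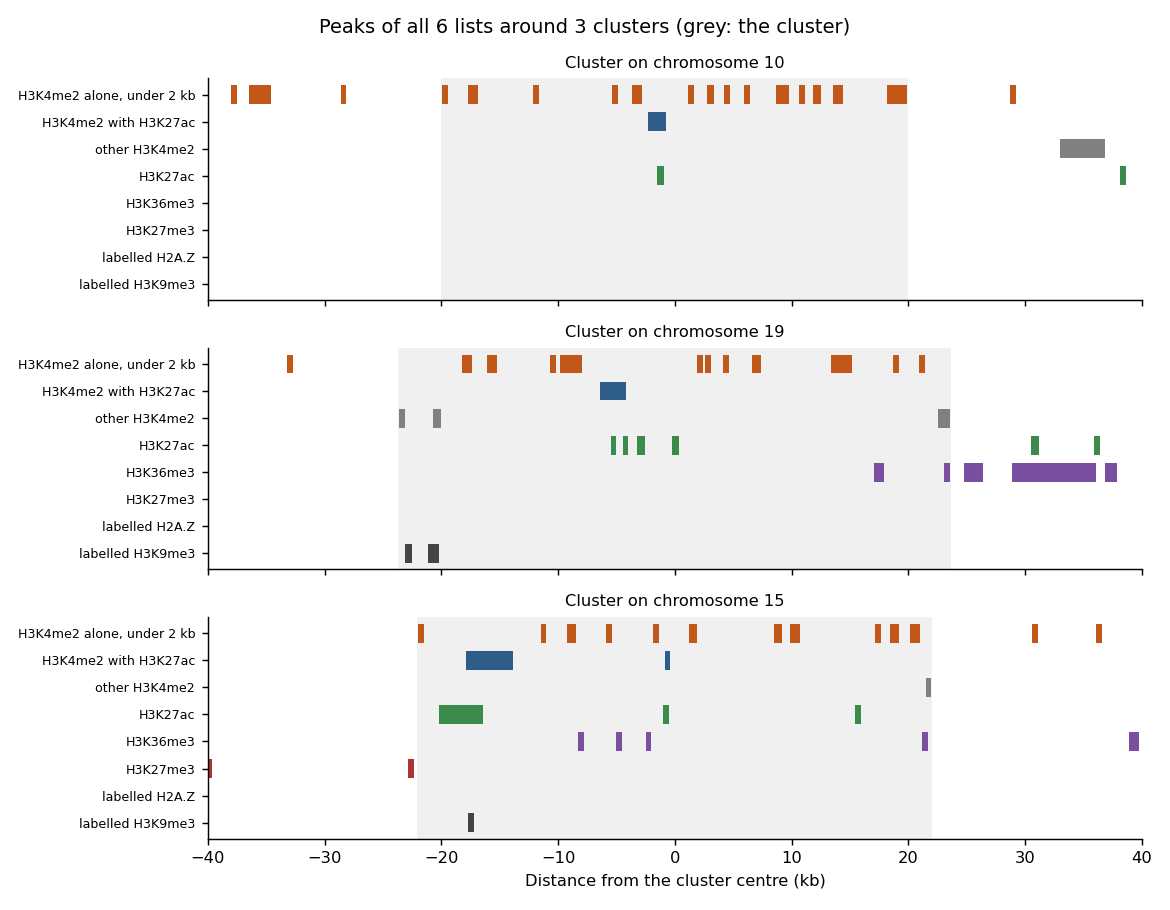
Peaks of all 6 lists within 40 kb of the centre of 3 clusters, those with the most and the next most H3K4me2-only peaks (14 and 12) and 1 of the 2 with 11 (the other, on chromosome 14, is not drawn); the horizontal axis is the distance from the centre in kb, each row is a list or a class of H3K4me2 peaks, and grey marks the cluster. The cluster on chromosome 10 holds a single H3K27ac peak among its H3K4me2-only peaks, whereas those on chromosomes 19 and 15 also hold H3K36me3 peaks.

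Width set the H3K4me2-only peaks apart from each other only mildly. Median distance to H3K27ac was 23.3 kb for those no wider than the commonest width, 20.5 kb for wider ones under 1000 bp and 16.4 kb from 1000 to under 2000 bp, and to H3K36me3 it was 59.4, 52.2 and 42.0 kb. Distance to H3K27me3 showed no such order, at 135, 133 and 144 kb. Co-marked peaks of the same widths had medians of 196, 180 and 159 kb to H3K27me3. From 1000 to under 2000 bp the intervals of these medians overlapped, at 135 to 152 kb for H3K4me2-only peaks against 151 to 166 kb. In the widest of these classes the differences from co-marked peaks of the same width were smaller but kept their direction, with 26.9% in clusters (25.5 to 28.3) against 32.6% of co-marked peaks (31.2 to 34), and H3K27me3 within 10 kb of 10.0% (9.16 to 11) against 5.05% (4.44 to 5.74).

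H3K4me2-only peaks were spread over the chromosomes more evenly than co-marked peaks. Their density ran from 6.07 per Mb on chromosome X to 22 per Mb on chromosome 17, a range of 3.62 times, whereas co-marked peaks ran from 2.96 per Mb on chromosome X to 18.7 per Mb on chromosome 19, a range of 6.31 times. After chromosome 19 the highest density of co-marked peaks was 12.8 per Mb, on chromosome 17. The rule leaves out peaks that overlap H3K27ac, so part of this contrast is set by the choice. Across the 23 chromosomes the densities of both classes were ordered alike (Spearman's rho 0.870, a description over chromosomes of 1 library). H3K4me2-only peaks outnumbered co-marked peaks on 23 of 23 chromosomes.

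The share of H3K4me2 peaks that were H3K4me2-only was lowest on chromosome 19. There it was 47.3% (45.2 to 49.3), with 1094 H3K4me2-only peaks beside 1045 co-marked peaks, and it was 55.3% on chromosome 16 and 55.5% on chromosome 17, whose intervals overlap. It was highest on chromosome 13, at 70.9% (68.4 to 73.3), followed by chromosome 5 at 69.5% (68.1 to 70.9) and chromosome 2 at 68.2% (66.8 to 69.7), whose intervals also overlap. The share was smaller on chromosomes with more H3K27ac peaks per Mb (rho -0.811, 23 chromosomes), and chromosome 19 had the most, 33.9 per Mb against 4.76 per Mb on chromosome 13. Because the rule leaves out peaks that overlap H3K27ac, this relation describes the choice and is not a separate result. H3K4me2-only peaks numbered 19.6 per Mb on chromosome 19, against 18.7 co-marked peaks per Mb, and 9.70 per Mb on chromosome 13, against 3.08 co-marked peaks per Mb.

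Distances also changed between these chromosomes. The median distance of H3K4me2-only peaks to H3K27ac was 6.20 kb on chromosome 19 and 46.4 kb on chromosome 13, and to H3K36me3 it was 11.7 and 130 kb. On chromosome 19, 33.6% of H3K4me2-only peaks were in clusters, against 39.4% of co-marked peaks. On chromosome 13 the shares were 14.1% against 22.3%. The median distance to H3K27me3 ran from 71.3 kb on chromosome 20, against 108 kb for co-marked peaks, to 419 kb on chromosome 4, against 355 kb. The density of the other lists differed between these chromosomes too. H3K27me3 peaks numbered 49.2 per Mb on chromosome 20 and 5.75 per Mb on chromosome 4. H3K36me3 peaks numbered 48.8 per Mb on chromosome 19 and 11.8 per Mb on chromosome 13.

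**Figure D5:**
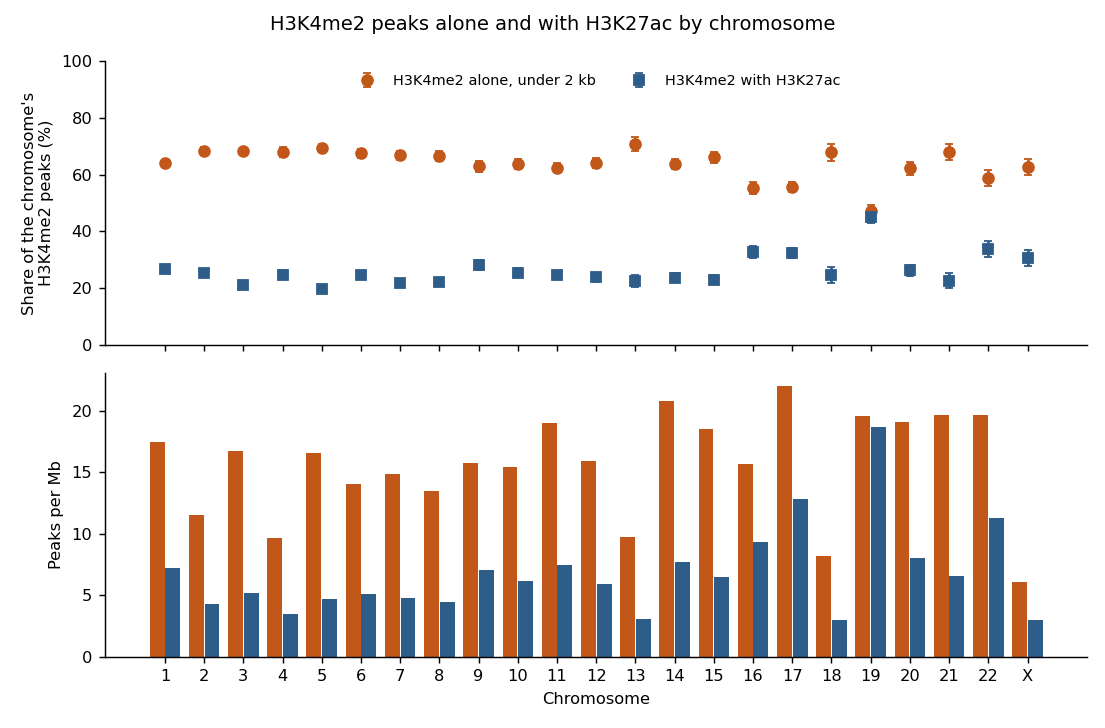
Top, percent of each chromosome's H3K4me2 peaks that were H3K4me2-only (orange circles) or co-marked (blue squares), with 95% Wilson intervals; bottom, peaks of both classes per Mb of analysed span. The 2 classes nearly meet on chromosome 19 (47.3% against 45.2%) and lie farthest apart on chromosome 5 (69.5% against 19.8%).

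Within chromosomes too, H3K4me2-only peaks were less concentrated. Of 2770 windows of 1 Mb, 74 held none of them. The densest 10% of windows held 25% of all H3K4me2-only peaks, against 37.9% of all co-marked peaks when windows were ranked by those. H3K4me2-only peaks occurred without any co-marked peak in 424 windows, and co-marked peaks without any H3K4me2-only peak in 12. The classes held 41522 and 16565 peaks, and the part of these numbers in the window counts and shares was not tested. In the 332 windows without any H3K27ac peak there were 1247 H3K4me2-only peaks, 3.01% of those counted. The count of H3K4me2-only peaks in a window went with the count of H3K27ac peaks (rho 0.788), H3K36me3 peaks (0.600) and, more weakly, H3K27me3 peaks (0.249), as a description over windows that share the same libraries.

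The window with the most H3K4me2-only peaks, 64, was on chromosome 14 (100000001 to 101000000) and also held 31 co-marked peaks and 66 H3K27ac peaks. Towards the ends of the autosomes, 9.27% of H3K4me2-only peaks (9.0 to 9.56) lay within 5 Mb of the outermost peak of any list, against 13.3% of co-marked peaks (12.8 to 13.8), and these zones made up 8.15% of the analysed span.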

How the data were processed

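Peak lists of 6 ChIP-seq libraries of T-47D cells (1 per mark) were used, and the input library was not analysed here. The authors deposited each list as a table of 4 columns with chromosome, start, end and name, with no score or other measure per peak. Bowtie2 2.1.0, HOMER 4.2 and the builds hg19 and GRCh37 are named in the submitters' processing notes, with no role given. For caller settings, use of input and depth, nothing was given in the sources used here.

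Coordinates are hg19 and 1-based. Rows outside chromosomes 1 to 22 and X were set apart. Overlap meant 1 shared bp or more, and distances and gaps were measured from edge to edge. Densities used the sequence between the first and last peak of any list on each chromosome, without spans of 1 Mb or more that held no peak. Copy number was not corrected. Interval functions were tested on 20 simulated lists against direct counts. No test was made because each mark has 1 library. Regions named in the text followed a rule: the widest, the nearest and farthest to H3K27ac, those with the widest gaps, the clusters with the most H3K4me2-only peaks, and the chromosomes with the highest and lowest shares, 3 of each. Ties between clusters went to the shorter span; the tied cluster on chromosome 14 and the window of 1 Mb with the most peaks were named after their values were seen. The regions, the comparisons and the rule were chosen with earlier results of these data known. Gene names and sequences are not given because an annotation and a genome of hg19 were not used here, so the cell line was not checked against its marker genes. Python 3.11.15, numpy 2.4.6, pandas 2.3.3, scipy 1.17.1 and matplotlib 3.10.9 were used.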

Additional observations from a re-analysis of the deposited data

Results flagged for a closer look

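On chromosome Y (3 H3K4me2 peaks) and the contigs beside the main chromosomes, the same rule found 26 short H3K4me2 peaks without another list among 174 H3K4me2 peaks, or 14.9% (95% Wilson interval 10.4 to 21.0). These peaks entered no comparison, and they are named here because they lay outside the chromosomes analysed. Their share was lower than the 64.3% (63.9 to 64.7) found on the main chromosomes. What set this lower share was not tested, and no number was expected beforehand for the count of 26.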

How the results depend on the processing

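No value below was tested, since each mark has 1 library; each alternative changed 1 choice. H3K4me2-only peaks made up 58.1% of H3K4me2 peaks when they had to be under 1000 bp, 65.4% with no width limit, 53.3% with no peak of another list within 1 kb, 69.4% with the lists labelled H2A.Z and H3K9me3 left out of the rule, and 62.5% with H3K4me2 peaks merged within 1 kb. Their number ran from 34428 to 44774 over these settings. The median distance of H3K4me2-only peaks minus that of co-marked peaks was 14.3 kb for H3K27ac, 44.3 kb for H3K36me3 and -37.8 kb for H3K27me3. With no peak of another list within 1 kb, the first 2 were 20.2 and 55.3 kb, and with merged peaks 16.9 and 48.5 kb. The H3K27me3 difference lay between -42.8 and -37.2 kb in the 8 settings tried besides single chromosomes. None of these settings compared peaks within the width classes. From 1000 to under 2000 bp the medians were closer, at 144 kb for H3K4me2-only peaks against 159 kb for co-marked peaks. The difference in median gap, 3.54 kb, was 3.8 kb under 1000 bp, 4.37 kb with no other peak within 1 kb, and -0.833 kb to the nearest peak of the same class. The difference in cluster share, -10.3 percentage points, was -12.4 with no other peak within 1 kb, -5.91 with merged peaks, -14.0 for chains with gaps of at most 10 kb, -2.04 and -14.2 for windows of 5 and 20 kb, and 2.82 when only the same class counted. The same-class settings count 41522 peaks of one class and 16565 of the other, and the part of these numbers in the turn was not tested. The highest chromosome share, on chromosome 13 throughout, was 65.8% under 1000 bp, 62.2% with no other peak within 1 kb and 75.8% without the labelled lists; the lowest, on chromosome 19 throughout, was 42.8, 32.9 and 50.8% under these settings and 44.4% with merged peaks. Leaving out each chromosome in turn gave a share of 63.9 to 64.9%, differences of 13.9 to 14.9 kb for H3K27ac, 42.4 to 46.4 kb for H3K36me3 and -39.9 to -36.0 kb for H3K27me3, a gap difference of 3.44 to 3.67 kb, a cluster difference of -10.6 to -10.1 points, a highest share of 69.5 to 70.9% and a lowest of 47.3 to 55.3%, the last without chromosome 19. Depth is unknown, so a lone H3K4me2 peak may hold other marks under their lists' thresholds, and widths below the commonest width are nearly absent. No paired analysis was possible because each group has 1 library.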
